A study of Arabidopsis thaliana with 10 samples.

Results

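dC26 is a transgenic Arabidopsis thaliana line that constitutively expresses a shortened TaSIN protein lacking the transmembrane motif, written ΔC26 in the labels. It was profiled on 2 of the 10 arrays of the study, described by the submitters as independent biological replicates. It was set against 4 control arrays, 2 of VC, a transgenic line with an empty vector, and 2 of Col-0, the untransformed wild type. The other arrays were 2 of dC27, a second line with the same truncated transgene, and 2 of FL3, a line with full-length TaSIN. All plants were 12-day-old seedlings grown in a chamber without stress, and the labels describe no other treatment or allele. dC26 is a single line, so within its comparison with the controls the effect of the transgene and that of the particular line cannot be told apart. The promoter of the transgene is not named in the sources used here. No probe set was named for TaSIN, so its level was not measured.

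Some of the genes that differed in dC26 belong to responses that are well described in plants. When mitochondria are disturbed, nuclear genes for efflux transporters, detoxifying transferases, mitochondrial chaperones and alternative respiratory enzymes are induced, which is called the mitochondrial retrograde response. Heat shock proteins and their partners refold or hold damaged proteins, and the HSP70 and HSP90 systems are linked by adaptor proteins. Cytosolic ribosomal proteins are made in step with demand for protein synthesis, while enzymes that degrade leucine and related amino acids in mitochondria are induced by darkness or carbon shortage.

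Values are the deposited intensities, with differences on the scale of log2(intensity + 16), which understates changes of dim probe sets. On that scale dC26 replicate 1 was at least 2-fold above the mean of the controls for 143 probe sets and at least 2-fold below it for 76. dC26 replicate 2 had 259 above and 389 below. Each control array, set against the other 3, had between 45 and 145 in both directions together. The response in replicate 2 was thus larger by this count, mostly on the side of lower levels. The arrays of the other transgenic lines had 165 to 234 in FL3 and 903 to 1304 in dC27. Across probe sets dC26 replicate 1 correlated at 0.986 with dC26 replicate 2 and at 0.989 with FL3 replicate 1. As whole seedlings were used, fewer cells of a type and less RNA per cell cannot be told apart.

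**Figure D1:**
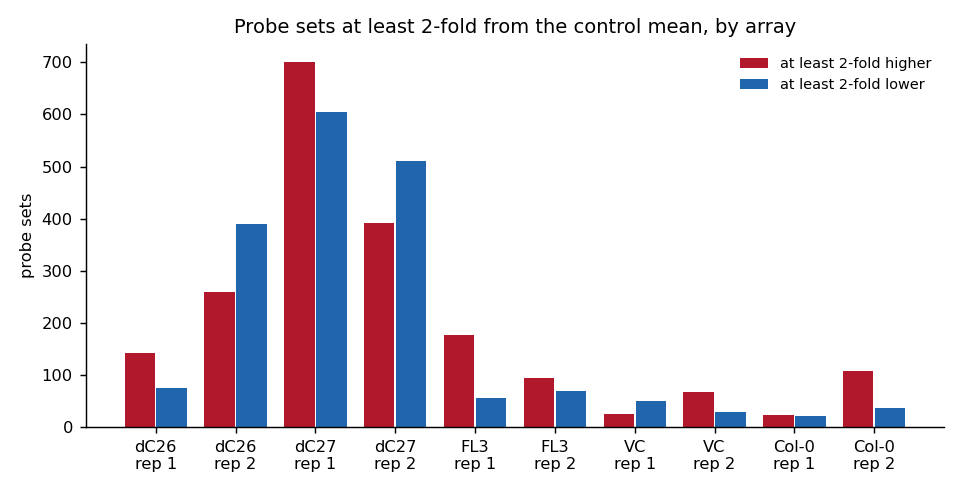
Number of probe sets (vertical axis) at least 2-fold above (red) or below (blue) the mean of the control arrays on the scale of log2(intensity + 16), for each array; a control array was set against the other 3. dC26 replicate 2 had 259 above and 389 below, against 143 and 76 in dC26 replicate 1.

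In a model of all 5 lines, 617 of 22746 probe sets differed between dC26 and the controls (limma, Benjamini-Hochberg adjusted p under 0.05), which is 2.71%. Of these, 435 (1.91%) were higher in dC26 and 182 (0.800%) were lower, and 125 of the higher and 39 of the lower changed at least 2-fold. The same fit called 6 probe sets (0.0264%) between VC and Col-0. The dC26 and control arrays did not overlap for 610 of the 617. Over all probe sets, both dC26 arrays were above the controls for 13.9% and below them for 12.2%. The test that chose the 617 favours such separation, so the 610 is only a description. The count depended on single arrays, and a fit that leaves 1 array in a line takes no spread from that line. It was 1727 without dC26 replicate 1 and 71 without dC26 replicate 2. It was 197 and 244 without VC replicate 1 or 2, 240 and 223 without Col-0 replicate 1 or 2, and 1010 and 1000 without dC27 replicate 1 or 2, whose spread enters the shared error. The annotation gave a single gene for 311 of the 617, 225 higher and 86 lower. The rules for naming genes picked 59 called in dC26 against the controls, of which 17 passed in all 6 fits that left out 1 dC26 or control array, and 42 lost the call without dC26 replicate 2, against 7 without dC26 replicate 1.

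AT2G21640 (UPOX) showed the largest rise; this nuclear gene is known to respond to oxidative stress and to mitochondrial dysfunction. Its intensity was 1877 and 1814 in the dC26 arrays, against 29.2 and 48.7 in VC and 35.7 and 57.3 in Col-0. The dC26 arrays lay close together and far above all controls, and the log2 difference was 5.01 ± 0.18 (SE; adjusted p = 2.5e-06), or 32.3-fold. AT2G04050, which encodes an efflux transporter of the MATE family, was at 527 and 392 in dC26, against 14.9 and 17.8 in VC and 16.4 and 20.7 in Col-0. The control values were near the low end of the scale, and the difference was 3.82 ± 0.14 (adjusted p = 2.5e-06). Its relative AT2G04070, also of the MATE family, was at 101 and 109 in dC26, against 24.1 and 18.3 in VC and 20.3 and 24.6 in Col-0 (log2 difference 1.68 ± 0.24, adjusted p = 0.01). These were the only members of 37 measured MATE genes that rose (5.41%, against 1.68% of all distinct loci), and none fell. That list was drawn up after the calls had been seen.

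AT5G51440 encodes a small heat shock protein of the mitochondrion. It was at 458 and 240.2 in dC26, against 15.5 and 24.3 in VC and 20.4 and 23.9 in Col-0 (log2 difference 3.24 ± 0.26, adjusted p = 0.00055). Here replicate 1 had the higher level, and both arrays lay well above the controls. AT2G32020, an acetyltransferase of the GNAT type, was at 362 and 285 in dC26, against 22.0 to 33.5 over the 4 controls, with a difference of 2.96 ± 0.31 (adjusted p = 0.0021). AT2G18190, an AAA-type ATPase, was at 289.9 and 127 in dC26, against 9.07 and 10.1 in VC and 9.16 and 7.25 in Col-0, with a difference of 3.07 ± 0.25 (adjusted p = 0.00065). For both the arrays of dC26 and the controls were far apart.

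Of 11 measured genes on a list of the mitochondrial retrograde response, 8 rose, none fell, and all 11 had a positive difference, with a median of 1.84. Its members include AT2G21640, AT2G04050, AT2G04070, AT5G51440 and AT2G32020, given above, and GSTU25, given below. The count thus partly restates those rises, and the list was chosen with earlier results of these data known. Over all distinct loci 1.68% rose and the median difference was 0.003. The median of the list was 1.78 in replicate 1 and 1.90 in replicate 2, so both arrays showed it. Without dC26 replicate 2, 5 of the 11 were called. Without any other single dC26 or control array 7 or 8 were. AT5G09570, which encodes a small protein with a mitochondrial import-type twin cysteine fold, was at 133 and 214 in dC26, against 25.3 and 44.1 in VC and 69.3 and 74.6 in Col-0. Its adjusted p was 0.048, the nearest to the threshold of the 8. The members that did not pass were NDB2 and NDB4, alternative NAD(P)H dehydrogenases, and AT5G64400, with log2 differences of 0.86, 0.32 and 0.20. NDB3, another enzyme of that type, was counted among 15 genes of the tricarboxylic acid cycle and respiration and was the only one of them to rise. It was at 51.5 and 35.3 in dC26, against 14.9 and 18.0 in VC and 15.1 and 16.6 in Col-0 (log2 difference 0.87 ± 0.16, adjusted p = 0.026), and its call was lost when any 1 of the 6 arrays was left out.

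Glutathione S-transferases attach glutathione to reactive compounds. GSTU22, of the tau class, was at 1813 and 2098 in dC26, against 138 and 98.4 in VC and 97.1 and 154 in Col-0, a log2 difference of 3.86 ± 0.25 (adjusted p = 0.00022). GSTU25 was at 656 and 553 in dC26, against 64.7 and 51.8 in VC and 32.5 and 93.3 in Col-0 (log2 difference 3.07 ± 0.45, adjusted p = 0.011). Both were far above every control array, although the call of GSTU25 was lost without dC26 replicate 2. GSTU23, a dim probe set, was at 23.9 and 22.1 in dC26 and 8.95 to 14.0 over the 4 control arrays, and rose by 0.53 on the log2 scale. Its call was lost without dC26 replicate 2, VC replicate 2 or Col-0 replicate 1. The other 11 of the 14 measured family members did not pass, and the family median was 0.019. Of 51 UDP-glycosyltransferases, which attach sugars to small molecules, only UGT73D1 rose, with 27.1 and 17.9 in dC26 and 7.81 to 11.7 in the controls, a share near the 1.68% of all loci, and its call was lost when any 1 of the 6 arrays was left out. Among the 22 cytochromes P450 on the list, which does not hold the whole family, none rose.

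The other leading rises included AT1G17960, a threonyl-tRNA synthetase, at 181 and 123 in dC26 and 11.4 to 12.8 in the controls. AT1G24430, an acyltransferase of the BAHD family, was at 245 and 235 in dC26, against 30.3 to 47.5 in the controls. Their log2 differences were 2.56 ± 0.20 and 2.31 ± 0.15. AT1G05060 was at 913 and 658 in dC26 and 125 to 163 in the controls. AT2G20720 was at 307 and 178 in dC26 and 12.8 to 21.4 in the controls. AT4G33666 was at 1079 and 1361 in dC26, against 161 to 366 in the controls. No role is given for these last 3 genes here. None of their dC26 arrays overlapped the controls, as the rule for naming them required. Of the 12 largest rises 11 were still called when any 1 of the 6 dC26 and control arrays was left out, all but GSTU25.

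**Figure D2:**
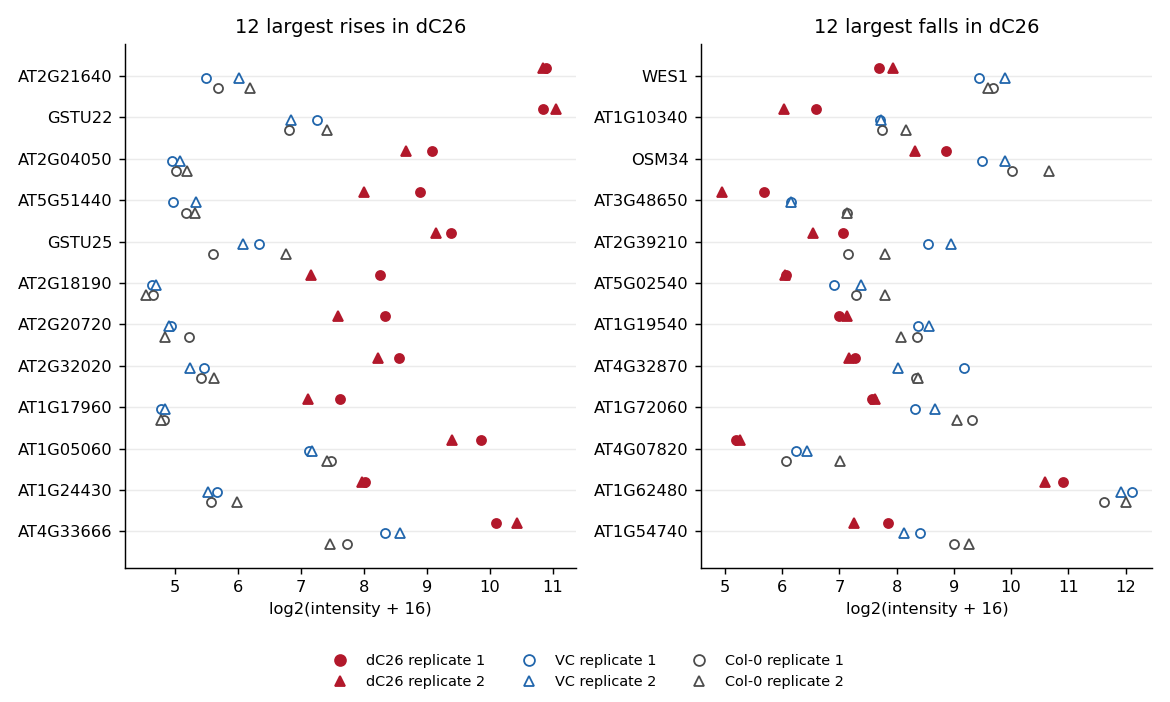
log2(intensity + 16) (horizontal axis) in the 2 dC26 arrays (filled) and the 4 control arrays (open) for the 12 largest rises (left) and the 12 largest falls (right) past the threshold. By the naming rule the dC26 arrays lie to the right of all controls for each rise and to the left for each fall. For AT2G21640 they were at 1877 and 1814.

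A set of protein-folding genes was also higher. AT3G09440, a cytosolic HSP70 of the constitutive type, was at 718 and 681 in dC26, against 192 and 231 in VC and 216 and 270.3 in Col-0, with a log2 difference of 1.56 ± 0.20 (adjusted p = 0.0053). AT5G48570 (ROF2), a heat-induced immunophilin, was at 126 and 103 in dC26, against 25.5 and 30.4 in VC and 29.0 and 39.4 in Col-0 (1.48 ± 0.19, adjusted p = 0.0063). Fes1A, a partner of HSP70, was at 222 and 221 in dC26, against 85.3 and 98.1 in VC and 63.7 and 87.5 in Col-0 (1.27 ± 0.17, adjusted p = 0.0081). For these 3 genes the arrays of dC26 agreed closely with each other and stood clear of all controls, and each call was lost without dC26 replicate 2 alone. Fes1A in particular had almost the same level in both dC26 arrays.

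Of 15 measured heat shock genes 7 rose (46.7%, against 1.68% of all distinct loci), including AT5G51440 given above, and none fell. The median log2 difference was 0.78, and it was 0.776 in replicate 1 and 0.783 in replicate 2. AT2G20560, a DnaJ-type co-chaperone, had 77.1 and 51.0 in dC26 and 16.2 to 27.1 in the controls, while the small heat shock-type genes AT1G54050 and AT2G19310 had log2 differences of 0.81 and 0.78. Several classical heat shock genes did not pass. AT1G53540, ATHSP22.0 and AT1G52560, small heat shock proteins, did not exceed 12.5 on any dC26 or control array, near the bottom of the scale. AT2G29500, another small heat shock protein, was at 38.8 and 17.8 in dC26 and 10.5 to 17.1 in the controls. The number called was 6 without dC26 replicate 1, 1 without dC26 replicate 2 and 4 or 5 without any 1 control array.

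Partners of HSP90 were listed separately, after the calls had been seen. Hop3, which hands clients over between HSP70 and HSP90, was at 50.6 and 49.8 in dC26, against 16.6 and 14.9 in VC and 17.1 and 15.9 in Col-0, a log2 difference of 1.04 ± 0.10 (adjusted p = 0.0015). It had nearly equal levels within each side and no overlap. Its relative Hop2 was at 402 and 463 in dC26 and 251 to 303 in the controls (0.64 ± 0.12), and BOB1, a small NudC-type chaperone, at 272 and 291 in dC26 and 139.5 to 198 in the controls (0.71 ± 0.13). With AT3G12050, an activator of the HSP90 ATPase type, 4 of 7 measured members rose (57.1%, against 1.68% of all distinct loci), and none fell. The number called was 1 without dC26 replicate 2, VC replicate 1 or Col-0 replicate 1, and 2 without VC replicate 2 or Col-0 replicate 2. Of 8 genes of the unfolded protein response of the endoplasmic reticulum none passed, with a median of 0.071.

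The broadest shift by number of genes was that of cytosolic ribosomal proteins, a list drawn up after the calls had been seen. Of 129 measured genes 32 rose, or 24.8% against 1.68% of all distinct loci, and none fell. A positive difference was seen in 123, with a median of 0.431 over the list. AT3G06700, of the large subunit, was at 1023 and 1238 in dC26, against 528 and 581 in VC and 557 and 601 in Col-0, a log2 difference of 0.97 ± 0.12 (adjusted p = 0.004). AT3G57490, of the small subunit, was at 142 and 199 in dC26, against 70.4 and 95.3 in VC and 71.0 and 67.6 in Col-0 (1.01 ± 0.16, adjusted p = 0.016). Both genes had separate groups, with replicate 2 the higher dC26 array. AT3G06680 and AT3G10610, ribosomal proteins as well, had 533 and 709 and 342 and 479 in dC26, against 269 to 358 and 190.5 to 222 in the controls. The 32 log2 differences lay between 0.55 and 1.01 in dC26 over the controls, smaller than those of the leading retrograde genes.

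The shift was small per gene and similar in both arrays. The median member stood 0.416 above the control mean in dC26 replicate 1 and 0.478 in dC26 replicate 2. Each control array, set against the other 3, had a median between -0.133 and 0.102. In dC26 replicate 1, 112 of the 129 members were above all 4 control arrays, and in replicate 2, 104 were. Over all probe sets, both dC26 arrays together were above all controls for 13.9%, and the share for single arrays is not given here. Set against the 3 other controls in the same way, VC replicate 2 was above them for 62 members, the most of any control. The arrays of dC27 had medians of 0.748 and 0.73, and those of FL3 0.702 and 0.655. The number of calls varied far more than the medians: 43 without dC26 replicate 1, 1 without dC26 replicate 2, 4 and 20 without VC replicate 1 or 2, and 4 and 5 without Col-0 replicate 1 or 2. Against VC alone 3 members passed, against Col-0 alone 16, with medians of 0.454 and 0.422. AT3G28500, an acidic protein of the ribosomal stalk, was the member with the lowest difference, at 98.6 and 75.3 in dC26 and 128 to 187 in the controls (-0.71, adjusted p = 0.11).

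Class III peroxidases are secreted enzymes that act on cell walls and hydrogen peroxide, many of them in roots. AT3G21770 was at 995 and 947 in dC26, against 371 and 284 in VC and 333 and 475 in Col-0 (log2 difference 1.39 ± 0.17, adjusted p = 0.0047). AT3G01190 was at 254 and 339 in dC26, against 111 and 72.8 in VC and 41.4 and 114 in Col-0 (1.69 ± 0.29, adjusted p = 0.021). Both dC26 arrays were above all controls for each gene, but for AT3G01190 the controls themselves differed more than 2-fold. AT5G17820 and AT5G66390 (PRX72) rose as well, with 282 and 361 and 101 and 148 in dC26, against 76.6 to 183 and 17.1 to 55.6 in the controls. The list of 55 measured peroxidases was drawn up after the calls had been seen. Only these 4 of the 55 rose (7.27%, against 1.68% of all distinct loci), none fell, and the median was 0.04. The number was 5 without dC26 replicate 1, 0 without dC26 replicate 2, 2 and 1 without VC replicate 1 or 2, and 2 and 4 without Col-0 replicate 1 or 2.

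Markers of root were read beside these peroxidases. AT3G01190 is itself one of 6 root markers, and further markers are on the peroxidase list too, so the lists are not separate readouts. AT3G01190 was the only marker to pass, and 5 of the 6 had a positive difference, with a median of 0.552. That median was 0.198 in dC26 replicate 1 and 0.909 in dC26 replicate 2. Their summed intensity was 2884 to 3144 in dC26 and 2404 to 3141 in the controls, a sum made up mostly of AT5G44020. EXPA7, an expansin of root hairs, was at 14.0 and 34.4 in dC26, against 13.3 and 10.9 in VC and 7.55 and 15.2 in Col-0, and EXPA18, also of root hairs, at 27.7 and 54.0 in dC26, against 23.4 and 16.7 in VC and 17.9 and 23.5 in Col-0. Replicate 2 was above all controls for both, replicate 1 for EXPA18 alone, and none of the 6 markers was listed at 0. The part of root content in the peroxidase result was not tested. The 4 leaf and photosynthesis markers had a median of 0.17, with none past the threshold. The single seed marker and the single pollen and flower marker were below 10 on all 6 arrays.

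The falls were smaller than the rises. WES1 (GH3.5), which conjugates auxin to amino acids, was at 190.1 and 229 in dC26, against 678 and 937 in VC and 806 and 756 in Col-0. All control arrays were at least 2-fold above both dC26 arrays, and the log2 difference was -1.84 ± 0.14 (adjusted p = 0.00051). Its relative GH3.17 was at 97.3 and 93.8 in dC26, against 161 and 177 in VC and 160.2 and 149.9 in Col-0 (-0.67 ± 0.12, adjusted p = 0.024). These were 2 of 14 genes of the auxin response, none of which rose, and the median was -0.059. The call of GH3.17 was lost without dC26 replicate 2 and without any 1 control array. Over all distinct loci 0.647% fell.

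AT1G19540, an NADPH-dependent reductase of the NmrA-like type, was at 111 and 125 in dC26, against 315 and 364 in VC and 312 and 254 in Col-0 (log2 difference -1.28 ± 0.14, adjusted p = 0.0025). AT1G72060, annotated as a serine protease inhibitor, was at 174 and 180.4 in dC26, against 302 and 392 in VC and 619.7 and 519 in Col-0 (-1.25 ± 0.14, adjusted p = 0.0032). With WES1 these were the 3 of the 12 largest falls whose call held when any 1 of the 6 arrays was left out. AT1G10340, an ankyrin-repeat protein, was at 80.2 and 49.2 in dC26, against 194 to 272 in the controls, and lost its call without dC26 replicate 2 alone. OSM34, an osmotin-like protein of the defence type, was at 449 and 303 in dC26 and 702 to 1607 in the controls. AT4G07820, a secreted protein of the CAP family related to PR-1, was at 20.6 and 22.2 in dC26 and 50.7 to 112 in the controls. For OSM34 the call was lost without dC26 replicate 2, VC replicate 2 or Col-0 replicate 2, and for AT4G07820 without either dC26 array or either VC array.

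The remaining large falls had wider or uneven controls. AT2G39210, a transporter of the major facilitator type, was at 118 and 77.5 in dC26, against 358 and 476 in VC and 126 and 207 in Col-0, so that its replicate 1 lay just below Col-0 replicate 1. AT3G48650, a transcribed pseudogene in the gene table used, was at 35.6 and 14.8 in dC26, against 55.1 and 55.1 in VC and 124 and 124 in Col-0. AT5G02540, an enzyme of the short-chain dehydrogenase type, was at 51.1 and 50.1 in dC26 and 103 to 205 in the controls. None of these groups overlapped, as the rule for naming the genes required. Each of the 3 calls was lost without dC26 replicate 2, VC replicate 2 or Col-0 replicate 2, those of AT2G39210 and AT3G48650 also without VC replicate 1, and that of AT3G48650 also without Col-0 replicate 1. AT1G62480, a protein described as related to calcium binding at the vacuole, was at 1906 and 1532 in dC26 and 3134 to 4407 in the controls. AT4G32870 and AT1G54740 had log2 differences of -1.26 and -1.14. The calls of AT1G62480 and AT1G54740 were lost without dC26 replicate 2, either VC array or Col-0 replicate 2, that of AT1G54740 also without Col-0 replicate 1, and that of AT4G32870 without either dC26 or either Col-0 array. Of the 22 cytochromes P450 on the list, CYP71B23 and CYP71B34 fell, beside 0.647% of all distinct loci. They were at 142 and 124 and at 27.4 and 21.5 in dC26, against 214 to 381 and 42.7 to 60.7 in the controls. Both calls were lost without dC26 replicate 2 or either VC array. That of CYP71B23 was also lost without Col-0 replicate 2, and that of CYP71B34 without Col-0 replicate 1.

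Of 9 measured enzymes that degrade leucine, valine and isoleucine in mitochondria, listed after the calls had been seen, 2 fell. Over all distinct loci 0.647% did. IVD, isovaleryl-CoA dehydrogenase of the leucine pathway, was at 778 and 555 in dC26, against 1457 and 1146 in VC and 1267 and 2060 in Col-0, a log2 difference of -1.12 ± 0.22 (adjusted p = 0.036). MCCB, a subunit of methylcrotonyl-CoA carboxylase in the next step, was at 591 and 505 in dC26, against 1091 and 795 in VC and 1037 and 1099 in Col-0 (-0.85 ± 0.18, adjusted p = 0.04). The dC26 arrays were below all controls for both. MCCA, the other subunit, was at 852 and 897 in dC26, against 2411 and 1317 in VC and 1779 and 2289 in Col-0, with a similar difference of -1.10 that did not pass (adjusted p = 0.057). ALDH6B2, a dehydrogenase of valine breakdown, did not pass at 1264 and 1177 in dC26 and 1942 to 2764 in the controls (adjusted p = 0.073). None of the 9 rose, and all 9 had a negative difference, with a median of -0.704. It was -0.741 in replicate 1 and -0.891 in replicate 2. The number called was 3 without dC26 replicate 1, 0 without dC26 replicate 2, VC replicate 1 or Col-0 replicate 2, 2 without VC replicate 2 and 1 without Col-0 replicate 1.

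**Figure D3:**
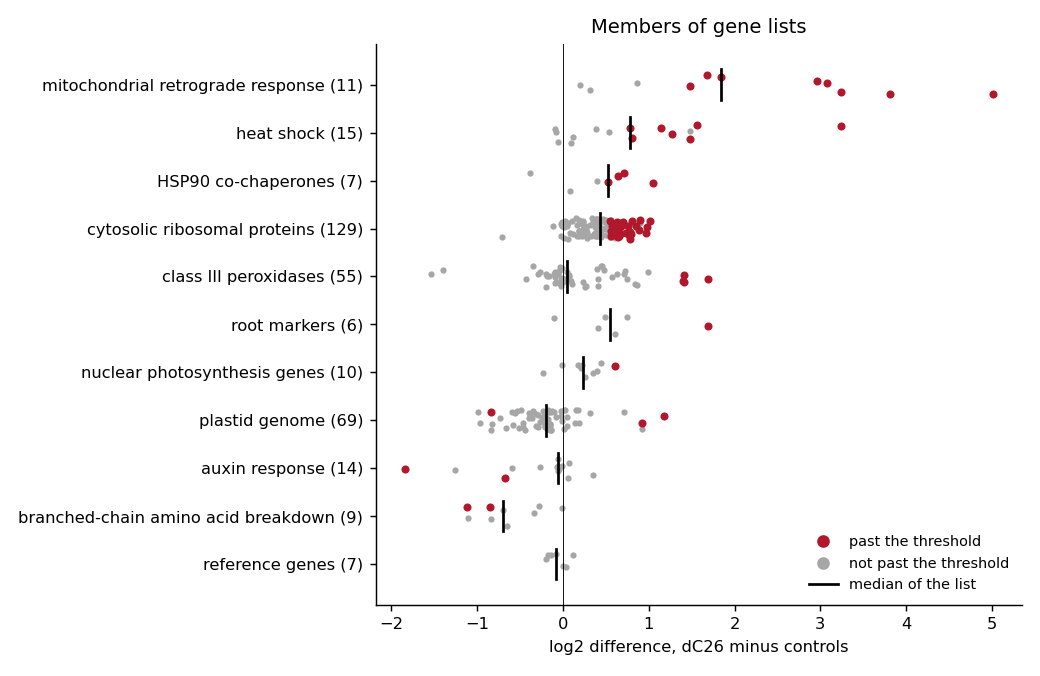
log2 difference between dC26 and the controls (horizontal axis) for the members of 11 gene lists, with the number of measured members in brackets; red points passed the threshold and the black line is the median of the list. The median was 1.84 for the mitochondrial retrograde response, 0.431 for cytosolic ribosomal proteins and -0.704 for branched-chain amino acid breakdown.

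Smaller numbers of genes moved in other groups, beside 1.68% of all distinct loci that rose. Of 6 antioxidant enzymes, GR1, a glutathione reductase, and SAPX, an ascorbate peroxidase of organelles, rose by log2 differences of 0.62 and 0.52. GR1 was at 398 and 459.6 in dC26 and 245 to 302 in the controls. Both calls were lost without dC26 replicate 2 and without any 1 control array. Of 13 genes of the jasmonate and defensin list only PDF2.1, a defensin-type gene, rose, at 328 and 374 in dC26, against 91.7 and 65.2 in VC and 79.2 and 109.8 in Col-0 (1.86 ± 0.18, adjusted p = 0.0013). Of 12 genes of cold, dehydration and abscisic acid, 2 rose. LEA4-5, a protective late embryogenesis abundant protein, was at 31.7 and 33.9 in dC26, against 11.9 and 14.8 in VC and 12.1 and 10.2 in Col-0 (0.79 ± 0.093, adjusted p = 0.0038). COR15B, a chloroplast protein induced by cold, was at 131 and 137 in dC26 and 48.1 to 79.0 in the controls, and its call was lost when any 1 of the 6 arrays was left out. BGLU28, a beta-glucosidase induced by sulfur shortage, was at 38.8 and 38.8 in dC26 and 13.7 to 24.3 in the controls. SWEET4, a sugar transporter, was at 45.0 and 45.6 in dC26 and 16.2 to 25.9 in the controls. Both rose, and both calls were lost without dC26 replicate 2, VC replicate 1 or Col-0 replicate 2, that of BGLU28 also without VC replicate 2 and that of SWEET4 also without Col-0 replicate 1.

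Of 10 nuclear photosynthesis genes only SBPASE, sedoheptulose-bisphosphatase of the Calvin cycle, rose, at 1764 and 1950 in dC26, against 1400 and 1405 in VC and 1165 and 950.5 in Col-0 (0.60 ± 0.12, adjusted p = 0.035), and its call was lost without dC26 replicate 2, either VC array or Col-0 replicate 2. Of 69 probe sets for the plastid genome atpA and psbN rose and psaJ fell, with a median of -0.203, against 1.91% higher and 0.800% lower over all probe sets. All 3 calls were lost without dC26 replicate 2, VC replicate 1 or either Col-0 array, those of psbN and psaJ also without VC replicate 2. The median against Col-0 alone was -0.443 and against VC alone 0.019, so its sign depended on the control line. atpA, a subunit of the chloroplast ATP synthase, was at 939 and 1520 in dC26, against 729 and 1106 in VC and 295 and 298 in Col-0. Its dC26 values overlapped those of VC. psbN, of photosystem II, was at 186 and 274 in dC26 and 89.4 to 137 in the controls. psaJ, a small subunit of photosystem I, was lower at 361 and 251 in dC26, against 493 and 486 in VC and 652 and 603 in Col-0. No member passed among 29 genes of cell wall loosening, 25 of autophagy and the proteasome, 17 CC-type glutaredoxins, 13 nitrate and peptide transporters, 8 aldehyde dehydrogenases, 7 of hypoxia, 7 WRKY factors or 7 reference genes. In the last list the median was -0.08. WRKY53, a factor of senescence and defence, was at 40.1 and 55.1 in dC26, against 313 and 488 in VC and 96.8 and 124 in Col-0, with an adjusted p of 0.23. Both dC26 arrays were below all controls, which themselves differed widely between VC and Col-0.

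dC26 was next set against dC27, which carries the same truncated transgene. Of 22746 probe sets, 670 (2.95%) differed, 483 (2.12%) higher and 187 (0.822%) lower in dC26. AT1G66100, a thionin-type antimicrobial peptide, was at 352 and 319.6 in dC26, against 24.3 and 16.7 in dC27, with a log2 difference of 3.28 ± 0.24 (adjusted p = 0.00059). The controls lay in between, at 181 to 288. MSRB6, a methionine sulfoxide reductase, was at 287 and 198 in dC26, against 16.4 and 11.8 in dC27 (3.09 ± 0.21, adjusted p = 0.0005), with controls at 36.0 to 59.2. AT5G62360, an inhibitor of the invertase and pectin methylesterase type, was at 605 and 509 in dC26, against 64.1 and 40.0 in dC27 (3.09 ± 0.29, adjusted p = 0.0019), with controls at 67.7 to 197. MSRB6 and AT5G62360 passed as rises against the controls too, with log2 differences of 2.05 and 1.88. AT3G51450, related to strictosidine synthase, was highest in dC26 too, while dC27 overlapped the controls, at 438 and 571 in dC26, 91.4 and 53.1 in dC27 and 71.2 to 165 in the controls.

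In other genes dC26 was at the level of the controls and dC27 was far lower. ECS1, a cell wall protein, was at 4817 and 4345 in dC26, against 565 and 893 in dC27 (log2 difference 2.66 ± 0.28, adjusted p = 0.003), with controls at 3195 to 6185. AT2G25510 was at 5574 and 5897 in dC26, against 634 and 1653 in dC27, with controls at 5267 to 7156. AT5G03350, a legume lectin-type protein, was at 219 and 296 in dC26 and 23.6 and 40.9 in dC27, with controls at 157 to 299. In these 3 genes the dC26 arrays lay within the control range and the dC27 arrays below it. The probe set named for PDF1.2b, a defensin, read 374 and 333 in dC26 and 23.8 and 49.2 in dC27, with controls at 273 to 751, and it can also detect close relatives. Of the 10 nuclear photosynthesis genes 4 were higher in dC26 than in dC27, LHCB4.2, SBPASE, PRK and PSAN, by log2 differences of 1.42, 1.06, 1.02 and 0.81, and the list median was 0.628. Over all distinct loci 1.74% were higher and the median was -0.003.

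Heat shock genes were among those higher in dC26 than in dC27. AT2G19310 was at 288 and 289.6 in dC26, against 69.3 and 90.9 in dC27 (1.68, adjusted p = 0.0023), and AT5G48570 (ROF2) at 126 and 103 in dC26, against 38.7 and 31.9 in dC27 (1.35, adjusted p = 0.016). With AT1G54050, 3 of the 15 heat shock genes were higher in dC26, and none was lower. Over all distinct loci 1.74% were higher. Of the HSP90 partners Hop3 was at 50.6 and 49.8 in dC26, against 18.1 and 19.2 in dC27 (0.93, adjusted p = 0.0064), and SGT1A, an adaptor of HSP90 in immunity, was higher by 0.94. For AT2G19310 the dC27 arrays were below all controls, whereas for Hop3 they were just above the control range of 14.9 to 17.1.

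Of the 11 genes on the retrograde list 2 were lower in dC26 than in dC27, AT2G04050 and NDB4, and none was higher. Over all 13286 distinct loci 111 were lower and 231 higher. AT2G04050 was at 527 and 392 in dC26, against 1133 and 1083 in dC27 (log2 difference -1.25 ± 0.16, adjusted p = 0.0065). NDB4 was at 13.8 and 20.4 in dC26, against 57.8 and 35.2 in dC27 (-0.90, adjusted p = 0.02), and its call was lost without either dC26 array. Outside that list, AT2G18190 was at 289.9 and 127 in dC26, against 567 and 725 in dC27 (-1.65 ± 0.29, adjusted p = 0.021). NDB3 was lower by 1.45 on the log2 scale, at 51.5 and 35.3 in dC26 and 164 and 129 in dC27. In AT2G04050, AT2G18190 and NDB3 dC26 stood between the controls and dC27. AT2G18180, a Sec14-like lipid-binding protein, was at 52.9 and 54.5 in dC26, 193 and 164 in dC27 and 7.48 to 11.2 in the controls, which is the same order. AT2G21640 itself, at 2594 and 2262 in dC27, did not pass (log2 difference -0.39, adjusted p = 0.36).

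In 3 other genes dC26 was near the controls and dC27 was higher. AT3G44970, a cytochrome P450, was at 19.5 and 16.0 in dC26, against 80.4 and 87.7 in dC27 (-1.57, adjusted p = 0.0016), with controls at 9.61 to 16.4. AT1G52820, an oxygenase that uses 2-oxoglutarate, was at 12.2 and 14.1 in dC26, against 60.0 and 75.1 in dC27 (-1.51, adjusted p = 0.0019), with controls at 7.42 to 17.6. AT5G37140 was at 9.89 and 11.6 in dC26 and 74.7 and 92.5 in dC27, with controls at 8.44 to 9.99. For these 3 genes both dC26 arrays were near the bottom of the scale, as were the controls. AT4G26470, a calmodulin-like protein, was at 130.1 and 62.3 in dC26, against 406 and 247 in dC27 (-1.64, adjusted p = 0.03), with the highest control, Col-0 replicate 2, at 44.6, so that dC26 lay above the controls and below dC27. AT4G24110 was at 24.8 and 15.9 in dC26, against 133 and 88.2 in dC27 (-1.79, adjusted p = 0.024), with controls at 30.7 to 82.6. AT3G28500 was lower in dC26 at 98.6 and 75.3, against 218 and 319 in dC27, with controls at 128 to 187. For AT4G24110 and AT3G28500 both dC26 arrays were below all controls and both dC27 arrays above them. Of the 16 genes named in this comparison, PDF1.2b lost its call without either dC26 array, AT5G03350, AT4G24110 and AT4G26470 without dC26 replicate 2 or dC27 replicate 1, and AT2G25510, AT2G18190 and AT3G28500 without dC26 replicate 2. The count of 670 was 843 without dC26 replicate 1, 109 without dC26 replicate 2, 412 without dC27 replicate 1 and 1448 without dC27 replicate 2. In a fit of the 4 arrays of both lines alone it was 16.

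Against FL3, 54 of 22746 probe sets (0.237%) differed, 44 (0.193%) higher and 10 (0.0440%) lower in dC26. AT5G62360 was at 605 and 509 in dC26, against 52.7 and 67.4 in FL3 (log2 difference 2.92 ± 0.29, adjusted p = 0.005). MSRB6 was at 287 and 198 in dC26, against 29.3 and 18.5 in FL3 (2.69 ± 0.21, adjusted p = 0.0027). AT1G66100 and AT3G51450 were higher in dC26 by 2.49 and 2.46. For these 4 genes both dC26 arrays were above the 8 arrays of the other lines. AT2G43550, a defensin-like cysteine-rich peptide, was at 420.4 and 392 in dC26, against 104 and 117 in FL3, with dC27 at 123 and 76.2 and controls at 132 to 291. AT1G78450, a SOUL-type heme-binding protein, was at 205 and 208 in dC26, against 25.6 and 38.2 in FL3. GSTU22 was higher in dC26, at 1813 and 2098 against 700.2 and 363 in FL3, but its call was lost without dC26 replicate 2 or FL3 replicate 2. For AT1G24430, 245 and 235 in dC26 against 52.2 and 43.7 in FL3, the call held when any 1 of the 4 arrays was left out, as it did for MSRB6. The other calls named here were lost without dC26 replicate 2, those of AT5G62360 and AT1G78450 also without FL3 replicate 1, and that of AT2G43550 also without either FL3 array.

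The genes lower in dC26 than in FL3 had smaller differences. WES1 was at 190.1 and 229 in dC26, against 522 and 487 in FL3 (-1.21 ± 0.17, adjusted p = 0.023), so dC26 had the lowest level of the 5 lines. AT2G04050 was at 527 and 392 in dC26, against 914 and 1019 in FL3 (-1.06 ± 0.16, adjusted p = 0.041). AT1G33420, a PHD-finger protein, was at 32.2 and 32.5 in dC26, against 88.0 and 86.9 in FL3 and 21.3 to 31.8 in the controls. AT3G12860, related to the nucleolar protein NOP56, was at 35.3 and 37.3 in dC26, against 92.2 and 82.8 in FL3 and 23.8 to 28.6 in the controls. In AT1G33420 and AT3G12860 dC26 lay just above the control range and well below FL3. AT1G27060, AT4G22960 and AT2G03130 were lower by 0.93, 0.60 and 0.56 on the log2 scale, with all dC26 values under 25. Every one of these 7 calls was lost without dC26 replicate 2 and without either FL3 array. The count of 54 was 475 without dC26 replicate 1, 14 without dC26 replicate 2, and 16 and 23 without FL3 replicate 1 or 2.

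**Figure D4:**
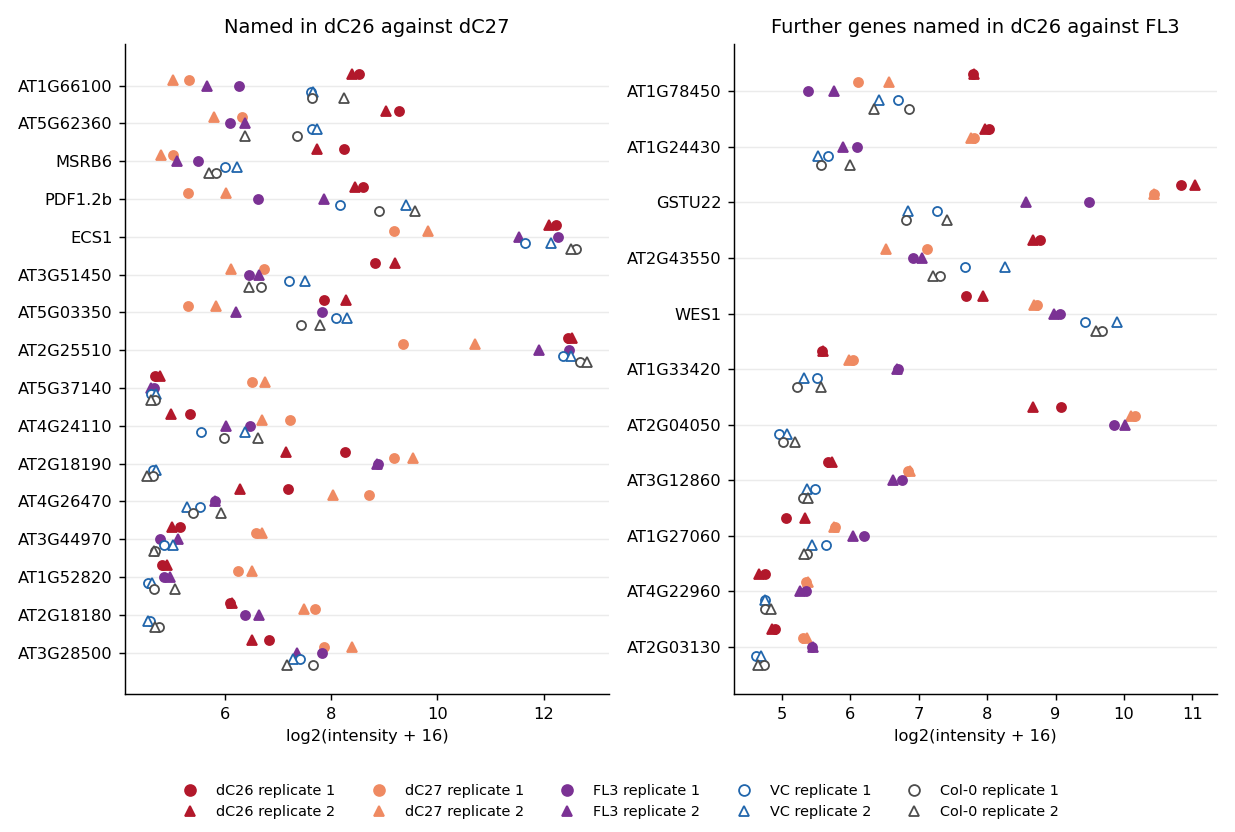
log2(intensity + 16) (horizontal axis) on all 10 arrays for the genes named in dC26 against dC27 (left) and the further genes named in dC26 against FL3 (right), with circles for replicate 1 and triangles for replicate 2. MSRB6 and AT5G62360 were highest in dC26, whereas AT2G18190 in dC26 lay between dC27 and the controls.

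The 2 dC26 arrays differed from each other by at least 2-fold in 214 probe sets, 188 higher in replicate 1 and 26 higher in replicate 2. In the other lines the number was 706 in dC27, 131 in Col-0, 97 in VC and 74 in FL3. In 182 of the 188, replicate 2 was below all 4 control arrays, while replicate 1 was within the control range for 97 of them. Choosing the 188 by a replicate 2 below replicate 1 favours such positions. These counts are thus only a description, and the shares over all probe sets are not given here. The median intensity of these 188 probe sets was 235.4 in replicate 1 and 84 in replicate 2, with a median of 235.1 for the control means. AT2G20690, related to the enzyme that makes riboflavin, was at 150.5 and 20.6 in dC26, against 112 to 154 in the controls. ATERDJ2A, a J-domain protein of protein import into the endoplasmic reticulum, was at 254 and 73.1 in dC26, against 227 to 306 in the controls. In both, replicate 1 was within the control range and replicate 2 far below it. AT2G42040 and AT3G11100 had 176 and 47.0 and 98.6 and 22.4 in dC26, against 177 to 268 and 99.0 to 146 in the controls. AT1G74450 was at 239 and 39.1 in dC26 and 186 to 521 in the controls. The probe set named for AT2G15220, a basic secretory protein, read 91.5 and 18.6 in dC26 and 23.4 to 46.6 in the controls, with replicate 1 above them and replicate 2 below.

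Among the 26 probe sets at least 2-fold higher in replicate 2, that array was above all controls in 25. Their choice favours high values in replicate 2, so the 25 is only a description. PDF2.5, a defensin-type gene, was at 69.7 and 218 in dC26, against 39.8 and 19.6 in VC and 29.3 and 78.0 in Col-0. AT1G73620, a thaumatin-like protein, was at 75.9 and 185 in dC26, against 66.2 and 43.2 in VC and 43.7 and 48.8 in Col-0. AT5G62340, an inhibitor of the invertase and pectin methylesterase type, was at 31.5 and 111 in dC26, against 43.9 and 12.9 in VC and 14.3 and 49.2 in Col-0. In these 3 genes replicate 2 was above every control array, and in PDF2.5 and AT5G62340 VC replicate 1 and Col-0 replicate 2 were the higher array of each control line. The subtilase SBT4.12 was at 127 and 295 in dC26 and 99.3 to 329 in the controls, so both arrays were within their range. AT1G67330 was at 99.4 and 233 in dC26, against 81.3 to 176 in the controls. AT5G02550 reached 74.8 in dC26 replicate 2 and lay below all controls in dC26 replicate 1, against 29.0 to 47.7 in the controls. None of these 12 genes passed in dC26 against the controls.

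The probe sets called in dC26 against the controls were chosen by a test that favours agreement of the dC26 arrays, so their values are given as a description. Of the 435 that were higher, 434 had both dC26 arrays above all controls, with median differences of 0.695 in replicate 1 and 0.835 in replicate 2. Of the 182 that were lower, 176 had both arrays below all controls, with medians of -0.647 and -0.899. Replicate 2 was the further from the controls in 440 of the 617. A fit with 1 dC26 array takes its spread from the other lines alone. Calls in such a fit cannot separate the line from that array. With replicate 1 as the sole dC26 array 71 probe sets passed, 66 of them among the 617, and with replicate 2 as the sole array 1727 passed, 487 of them among the 617. Of the 1727, 779 were lower, against 5 of the 71.

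**Figure D5:**
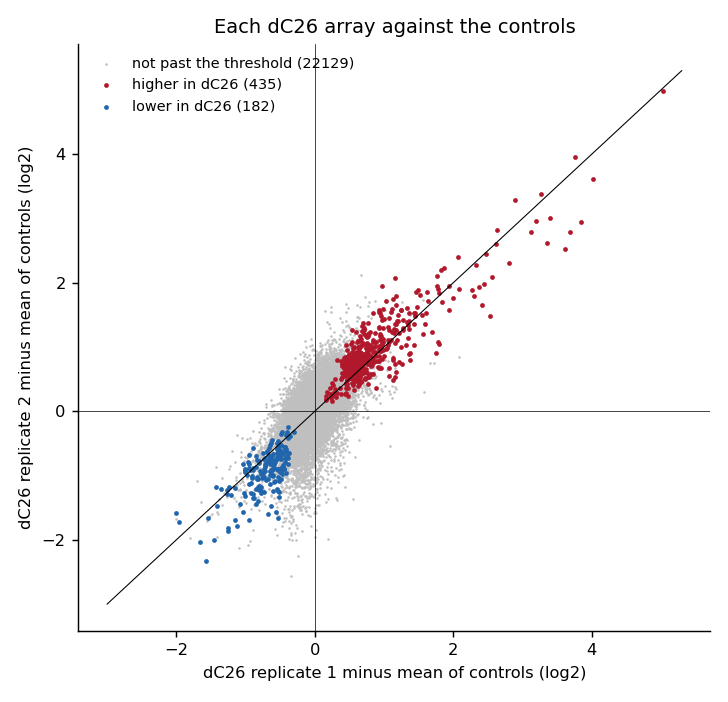
Difference from the mean of the controls (log2) for each probe set in dC26 replicate 1 (horizontal axis) and dC26 replicate 2 (vertical axis), with called probe sets in red (higher) and blue (lower) and the line of equal difference in black. The 435 and 182 called probe sets lie near the line, and the grey points extend further down in replicate 2.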

How the data were processed

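RNA of whole seedlings was isolated with Trizol and, as biotin-labelled cRNA, measured on Affymetrix arrays, per the labels' protocols. The authors deposited 1 linear intensity per probe set and array. For summary, background handling and scaling no method was found in the labels (not given in the sources used). Array medians lay between 41.7 and 44.2, and no raw scanner values were used. Of 22810 probe sets 64 controls were left out. The platform annotation gave 1 gene for 13513 of the 22746 tested, several for 503 and none for 8730. Of the 13513, 13436 matched the TAIR10.1 gene table, at 13286 distinct loci. Genes with several probe sets are represented in lists by the one with the highest mean.

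Values were transformed as log2(intensity + 16), and 34.8% of them were below 16. All 10 arrays entered a single limma fit (limma 3.58.1 in R 4.3.3) with 1 mean per line and moderated variances that follow intensity. Tests were two-sided, adjusted after Benjamini and Hochberg over the 22746 and judged at 0.05. The number of arrays limits the precision. The fit was checked on simulated data. Figures were drawn with matplotlib 3.10.9.

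Named were the 12 largest rises and falls past the threshold with 1 gene and no overlap of arrays, up to 4 called or 2 uncalled members of each list, 8 each way against dC27 and FL3, and the 6 largest differences each way between the dC26 arrays at a mean intensity of at least 50. Genes outside this rule (the other list members given) were chosen after their values were seen. The genes, the 47 lists and the tests were chosen with earlier results of these data known, and 5 lists were added after the calls were seen: ribosomal proteins, peroxidases, branched-chain amino acid breakdown, HSP90 partners and MATE transporters. Of the lists 45 had a named probe set and 36 at least 3. Lists are described by counts and medians, without a test. Alternatives were a replicate block, other normalizations, pseudocounts, variance priors, filters, arrays and controls.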

Additional observations from a re-analysis of the deposited data

Results flagged for a closer look

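These genes differed between dC26 and another transgenic line, by a direct test of that difference in limma (Benjamini-Hochberg adjusted p under 0.05 over 22746 probe sets, 2 arrays a line). Against dC27, the log2 differences of genes higher in dC26 were 3.28 for AT1G66100, 3.09 for AT5G62360, 3.09 for MSRB6, 2.86 for PDF1.2b, 2.66 for ECS1, 2.58 for AT3G51450, 2.51 for AT5G03350 and 2.46 for AT2G25510. The genes lower in dC26 than in dC27 had differences of -1.89 for AT5G37140, -1.79 for AT4G24110, -1.65 for AT2G18190, -1.64 for AT4G26470, -1.57 for AT3G44970, -1.51 for AT1G52820, -1.47 for AT2G18180 and -1.46 for AT3G28500. Against FL3, those higher in dC26 were AT5G62360 by 2.92, MSRB6 by 2.69, AT1G66100 by 2.49, AT3G51450 by 2.46, AT1G78450 by 2.23, AT1G24430 by 2.00, GSTU22 by 1.92 and AT2G43550 by 1.74. Those lower in dC26 than in FL3 had differences of -1.21 for WES1, -1.10 for AT1G33420, -1.06 for AT2G04050, -0.98 for AT3G12860, -0.93 for AT1G27060, -0.60 for AT4G22960 and -0.56 for AT2G03130. With 2 arrays a line, single arrays were not tested as outliers. In a fit of the arrays of the compared lines alone, 12 of the genes named against dC27 lost their call and 4 kept it. Against FL3, 6 lost it and 9 kept it.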

How the results depend on the processing

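The count of probe sets called in dC26 against the controls, 617, ranged between 71 and 1727 when 1 array was left out. It was 1005 without both dC27 arrays, 348 in a 2-group fit, 222 against VC alone, 406 against Col-0 alone and 164 with a 2-fold minimum. Against dC27 the count of 670 was 365 without both FL3 arrays, 16 with the arrays of both lines alone, 262 with a 2-fold minimum and 109 to 1448 when 1 array was left out. Against FL3 the count of 54 was 119 without both dC27 arrays, 25 with no intensity trend and 14 to 475 when 1 array was left out. With the replicate number as a block the counts were 377 against the controls, 446 against dC27 and 36 against FL3. The deviations of same-numbered arrays correlated between -0.2 and 0.086 over the 10 pairs of lines, with 0 of 10 above 0.1. No shared effect of the replicate number was thus seen. This does not show whether same-numbered samples were handled together. The 214 probe sets that differed at least 2-fold between the 2 dC26 arrays became 425 with a pseudocount of 1 and 72 with one of 64. Over the named genes and settings no called difference changed sign. Against the controls the side of the threshold was kept in 1804 cases, lost in 273 and gained in 40, and in 8 an uncalled difference changed sign. Against dC27 it was kept in 215 and lost in 25, against FL3 in 167 and 58. The cause of these changes was not tested. Leaving out each dC27 array, the list counts without single arrays and the settings for the dC26 array difference were chosen after seeing the data.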
